A study of Mus musculus with 17 samples.

Results

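The 10 genes described here take part in the handling of water, bicarbonate, chloride and other ions in the mouse colon, or in its control. They are the water channels Aqp1, Aqp4 and Aqp8, the carbonic anhydrases Car1, Car2 and Car4, the chloride channel Cftr, the CLCA family gene Clca4b, the proton-potassium pump subunit Atp12a and the secreted peptide Guca2a. They were taken as the entries of the count table whose gene symbol equals 1 of these names, which gave 10 of 23719 entries, and all 10 passed the filter on low counts. Colon tissue came from 17 male C57BL/6 mice aged 32 to 34 weeks, with 1 library per mouse. The 9 Control mice drank water. The 8 GWI mice, named for Gulf War illness, received 2 mg/kg of pyridostigmine bromide (PB), which blocks acetylcholinesterase reversibly, through their drinking water for 7 days. They then had 21 days without it, and tissue was collected at day 30. The model is limited to 1 agent and to male mice, and the sources used here do not say which layers or which segment of the colon were taken. The comparison asks whether the RNA of these genes differed between the groups 21 days after PB had been withdrawn.

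The colon absorbs most of the water and salt that reaches it, and it can also secrete. Surface cells take up sodium and chloride through paired exchangers for protons and bicarbonate, and carbonic anhydrases supply both ions by hydrating carbon dioxide. Crypt cells secrete chloride through CFTR, which opens when cyclic AMP or cyclic GMP rises, and guanylin, the peptide made from Guca2a, raises cyclic GMP by binding the receptor guanylate cyclase C. Water follows the salt between cells and through aquaporins, and many of these genes are used unevenly along the length of the colon.

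Libraries were of like depth. Totals ran from 16293537 to 20741212 counts per mouse, 16578 to 17236 genes were detected per mouse, and the 10 genes together took 0.794% to 2.66% of the counts of a Control mouse and 0.903% to 2.14% of those of a GWI mouse. Some libraries stood apart. Levels are in CPM, the count of a gene as a share of the mouse's library size after scaling. The summed level of 6 posterior hindgut Hox genes (such as Hoxa13 and Hoxb13), which mark the caudal end of the gut, was 129.6 CPM in Control 1 and 89.1 CPM in GWI 5, against 9.45 to 45.0 CPM in the other 15 mice. How far they stood apart depended on the measure. By the mean log2 CPM of the 5 tested genes among these, Control 1 (2.31) was level with Control 2 (2.30). By the same mean, GWI 5 (1.83) was the highest GWI mouse, with GWI 6 next (1.32), but lay within the range of Controls. The summed level of 10 small intestine genes (such as Fabp6 and Apoa1) was 491 CPM in Control 6 and 1148 CPM in Control 7, against 56.5 to 122 CPM in the other 15. Control 9 had the lowest scaling factor, 0.799. Epithelial markers were present in every mouse, since 11 colon epithelium genes summed to 11106 to 21461 CPM in Controls and 14367 to 21270 CPM in GWI mice. Whether these 11 genes tell the colon from other parts of the gut was not tested. Cell type markers also differed between groups. Of 10 smooth muscle genes, 7 were called lower in GWI colons and 0 higher, with summed levels of 3690 to 23923 CPM in Controls and 3658 to 11832 CPM in GWI mice, and of the 11 epithelial genes 4 were called higher and 0 lower, where 13.5% of all tested genes were called lower and 13.4% higher. The part of these differences in the results below was not tested beyond the fits named there. In bulk tissue, fewer cells of a type and less RNA per cell cannot be told apart.

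Sequence from the start of 3 genes is shown because their levels tell the mice apart in different ways. Aqp8 and Car4 had their highest levels of each group in the libraries with the highest summed posterior Hox level. Guca2a varied little between most mice, although its highest GWI level was also in GWI 5. Each stretch runs 5′ to 3′ from 250 bases before to 50 bases after the RefSeq start of the gene on build GRCm38.p6, and all 3 lie on the plus strand. Aqp8 is at chr7:123462044-123462343, Car4 at chr11:84957504-84957803 and Guca2a at chr4:119637482-119637781. Capitals mark every match, on either strand, to TTTAT, the core letters of sites bound by posterior HOX and CDX factors.
Aqp8: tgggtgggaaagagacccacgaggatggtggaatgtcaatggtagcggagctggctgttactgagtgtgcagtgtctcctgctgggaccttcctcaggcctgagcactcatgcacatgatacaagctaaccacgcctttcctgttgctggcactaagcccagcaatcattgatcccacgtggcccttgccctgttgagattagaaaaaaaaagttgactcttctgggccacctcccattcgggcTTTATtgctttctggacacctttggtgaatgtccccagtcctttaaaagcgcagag
Car4: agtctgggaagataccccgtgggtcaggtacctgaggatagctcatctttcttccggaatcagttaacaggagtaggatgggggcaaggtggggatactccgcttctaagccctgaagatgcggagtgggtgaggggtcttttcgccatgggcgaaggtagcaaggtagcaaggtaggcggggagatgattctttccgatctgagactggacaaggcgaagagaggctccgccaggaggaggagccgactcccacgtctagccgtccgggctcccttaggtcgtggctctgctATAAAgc
Guca2a: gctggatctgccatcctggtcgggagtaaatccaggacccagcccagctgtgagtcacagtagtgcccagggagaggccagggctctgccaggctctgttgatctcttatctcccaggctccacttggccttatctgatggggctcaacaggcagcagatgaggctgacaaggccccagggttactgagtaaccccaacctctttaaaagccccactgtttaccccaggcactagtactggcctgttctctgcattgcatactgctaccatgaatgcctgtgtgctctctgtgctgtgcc
TTTAT was found on either strand in 40% of all 32851 RefSeq promoters of this length, so a match is common. RefSeq promoters were matched for 6 of the 10 genes. Clca4b had 4 matches, Aqp8 and Car4 had 1 each, and Guca2a, Cftr and Aqp1 had 0. The match in Car4 overlaps a TATAAA, a sequence found in 13.6% of the promoters, which Clca4b holds 2 times and the other 4 do not hold. CACCC, the core letters of sites bound by KLF factors, occurs in 57.5% of the promoters. Aqp1 has 3 matches to it, Guca2a has 0 and the other 4 have 1 each. A match describes the letters alone, and binding was not measured.

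Of the 10 genes, 1 was called lower in GWI colons, Atp12a, and 0 were called higher, at an adjusted p-value under 0.05 by the quasi-likelihood test of edgeR, with p-values adjusted over 14146 tested genes by Benjamini and Hochberg's method. At an unadjusted p under 0.05 the numbers were the same, 1 lower and 0 higher, and DESeq2's Wald test also called Atp12a. Over all tested genes the share called was 26.8% in either direction, 13.4% higher and 13.5% lower. The difference between 1 of 10 and that share was not tested, and without Control 1 it was 4 of 10 against 34.2% of all tested genes. Log2 fold changes, given as GWI against Control, were positive for 4 genes and negative for 6, with a median of -0.05 against -0.06 over all tested genes. None of the 10 had groups that did not overlap (0 of 10), which was the case for 2.35% of tested genes.

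**Figure D1:**
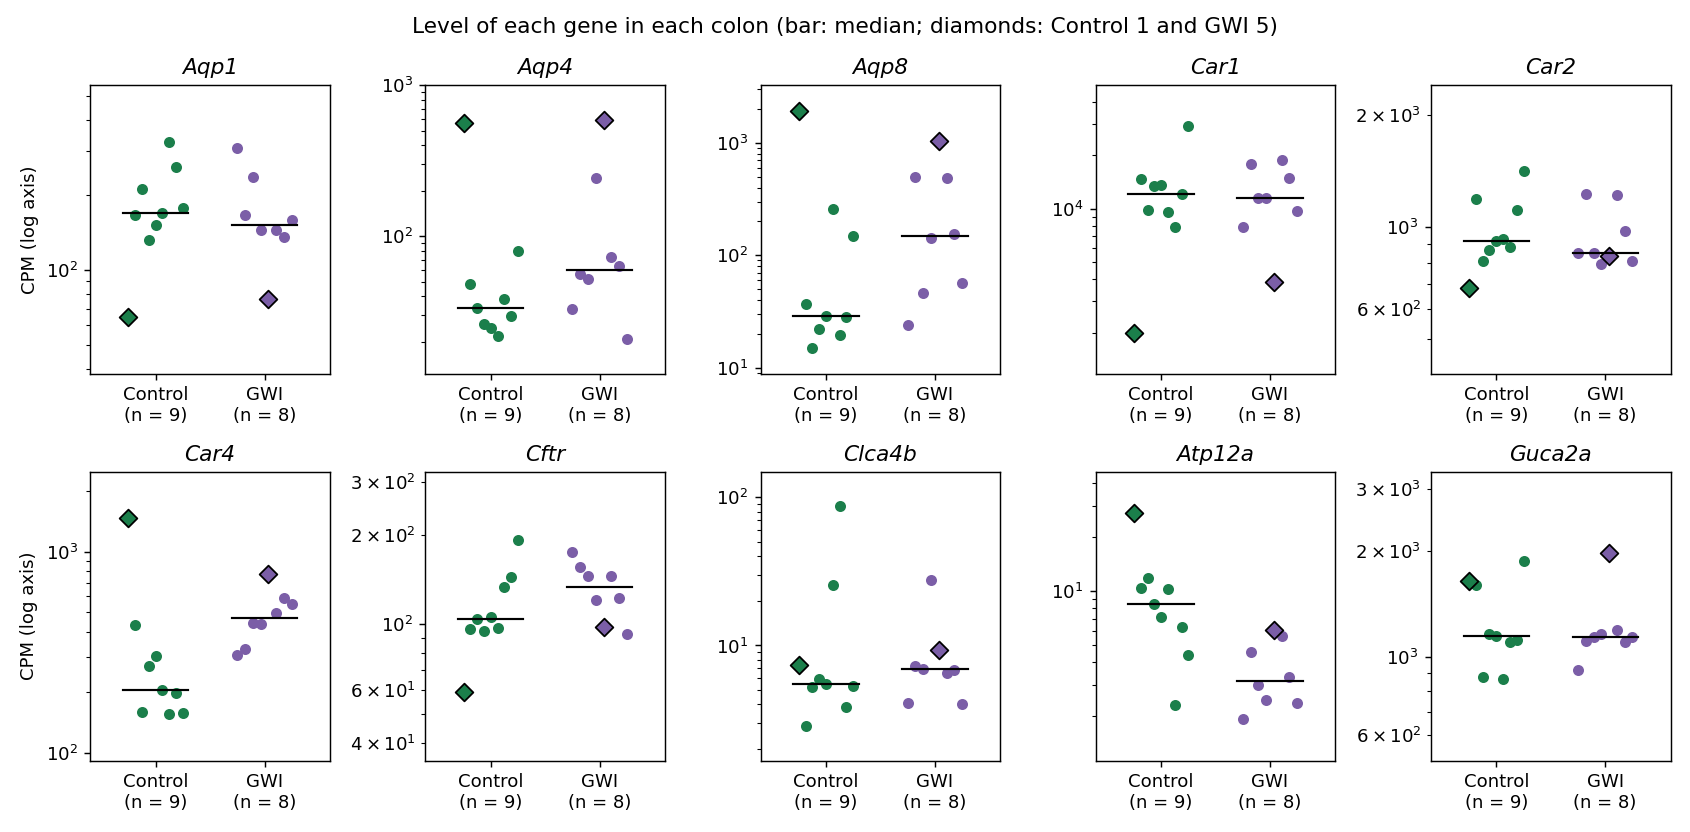
Level of each of the 10 genes in every mouse, in CPM on a log axis, with Control and GWI mice side by side a bar at each group's median and diamonds for Control 1 and GWI 5. Control 1 and GWI 5 stand above the rest of their groups for Aqp4 and Aqp8, and most GWI mice lie below most Controls for Atp12a.

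Per kilobase of exon, which allows levels of different genes to be compared, Car1 was the most abundant of the 10 genes. Its median was 9654 CPM per kb in Controls and 9150 CPM per kb in GWI mice. Guca2a came next, with medians of 1929 and 1919 CPM per kb, and the ranges of Car1 and Guca2a overlapped in both groups. Car2 followed at 378 and 351 CPM per kb, below every mouse's level of Guca2a. Car4 had medians of 105 and 238 CPM per kb and overlapped with Car2 in both groups. Aqp1 (64.3 and 57.8 CPM per kb) overlapped with Car4 in Controls but lay below it in every GWI mouse. Aqp8 (18.3 and 94.4), Cftr (13.4 and 17.2) and Aqp4 (5.33 and 9.61) each overlapped with the gene before it in both groups. Atp12a (2.11 and 0.787) and Clca4b (1.83 and 2.30) were the least abundant and overlapped with each other. Atp12a overlapped with Aqp4 in Controls and lay below it in every GWI mouse.

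Aqp1 (ENSMUSG00000004655.5, chr6:55336432-55348555 in the GENCODE M21 annotation of GRCm38) encodes a water channel known from the endothelium of blood vessels and from several epithelia. Its lowest, median and highest levels were 65.0, 169 and 327 CPM in Controls and 76.7, 152 and 309 CPM in GWI mice. The lowest value of each group belonged to Control 1 and to GWI 5, and the groups spanned almost the same range. Means were 184 ± 75.2 CPM (SD, n = 9) in Controls and 172 ± 70.5 CPM (SD, n = 8) in GWI mice, a log2 fold change of -0.10 (SE 0.27, adjusted p = 0.793), with an approximate 95% interval of -0.68 to 0.47. Beside it, 4 of 9 endothelial marker genes were called lower, where 13.5% of all tested genes were. All 9 had negative fold changes, as did 7806 of 14146 tested genes. The part of endothelial RNA in the level of Aqp1 was not tested.

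Aqp4 (ENSMUSG00000024411.10) encodes a water channel of the basolateral membrane of epithelial cells and of glia. In Controls the lowest, median and highest levels were 21.7, 33.2 and 565 CPM, and in GWI mice they were 20.8, 59.9 and 592 CPM. The highest values were those of Control 1 and GWI 5. Without these libraries, Controls reached at most 79.3 CPM and GWI mice at most 241 CPM, the latter in GWI 4. The mean was 96.2 ± 177 CPM (SD, n = 9) in Controls and 141.5 ± 195 CPM (SD, n = 8) in GWI mice, so the SD was above the mean in both groups. The log2 fold change was 0.56 (SE 0.77, adjusted p = 0.604, 95% interval -1.09 to 2.21), an interval wide enough to hold a large change in either direction. DESeq2's Wald test on the same mice gave 0.92 (SE 0.38, adjusted p = 0.0522). Its default settings can replace outlying counts, and whether counts of Aqp4 were replaced was not recorded. This value may therefore not rest on the same counts as the edgeR value. Leaving out Control 1 alone gave 1.92 with an adjusted p of 0.0176, and leaving out both Control 1 and GWI 5 gave 1.04 with an adjusted p of 0.0659, while leaving out GWI 5 alone turned the direction, to -0.32.

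Aqp8 (ENSMUSG00000030762.11, chr7:123462291-123468004), the promoter of which is shown above, encodes a channel for water and ammonia in the apical membrane of surface epithelial cells of the colon. As a fold of highest over lowest mouse, its range was the widest of the 10 genes, 129-fold in Controls and 43.6-fold in GWI mice. Levels were 14.96, 28.9 and 1934 CPM (lowest, median and highest) in Controls and 24.0, 149 and 1047 CPM in GWI mice. Control 1 and GWI 5 were again highest, and of the other mice Control 6 (256 CPM), Control 9 (147 CPM) and 4 GWI mice (GWI 2, 4, 6 and 7) stood above 100 CPM. Means of 276 ± 627 CPM (SD, n = 9) and 307 ± 354 CPM (SD, n = 8) gave a log2 fold change of 0.15 (SE 1.00, adjusted p = 0.923, 95% interval -1.98 to 2.28). Without Control 1 the log2 fold change of Aqp8 was 2.15 (adjusted p = 0.0430), and without Control 1 and GWI 5 it was 1.54 (adjusted p = 0.111), a fit in which 2 of 7 GWI mice lay above every Control. Without GWI 5 alone it was -0.46. Over 29 alternatives the sign turned in 9 and Aqp8 was called higher in 3, which were the fit without Control 1, limma-voom with quality weights (2.26, adjusted p = 0.00807) and the fit without Control 1, 6, 7, 9 and GWI 5 (2.93, adjusted p = 0.00865).

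**Figure D2:**
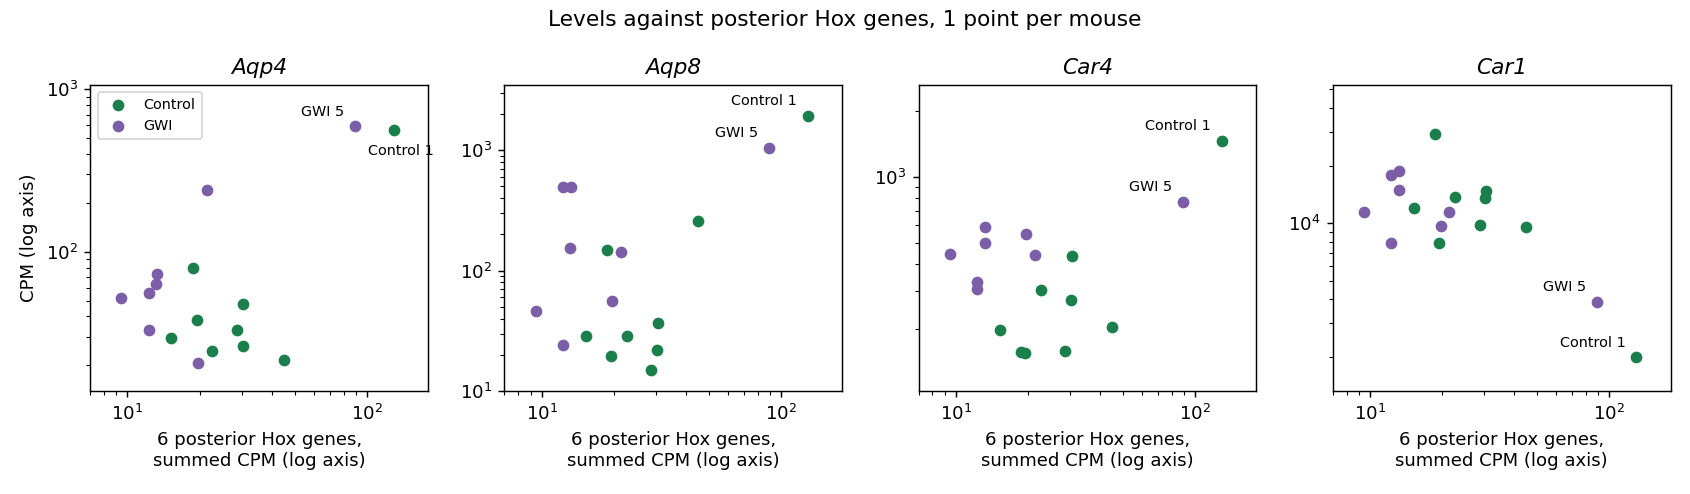
Level of Aqp4, Aqp8, Car4 and Car1 in each of the 17 mice (vertical, CPM, log axis) against the summed level of 6 posterior hindgut Hox genes (horizontal, CPM, log axis). Control 1 and GWI 5 lie apart at the right, with high Aqp4, Aqp8 and Car4 and low Car1.

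Car1 (ENSMUSG00000027556.15, chr3:14766216-14808368) encodes a cytosolic carbonic anhydrase that is abundant in colonocytes and in red blood cells. It took 0.187% to 2.34% of all counts in Controls and 0.376% to 1.79% in GWI mice. Levels were 1988, 12049 and 29280 CPM (lowest, median and highest) in Controls and 3865, 11419 and 18818 CPM in GWI mice. The lowest values were those of Control 1 and GWI 5, the libraries in which Aqp4 and Aqp8 were highest, and the highest was that of Control 9. Between the groups the log2 fold change was -0.06 (SE 0.37, adjusted p = 0.917, 95% interval -0.85 to 0.73). The red blood cell list (haemoglobin genes, Alas2 and Slc4a1) summed to only 13.6 to 66.1 CPM in Controls and 20.2 to 45.3 CPM in GWI mice, with 0 of 5 tested genes called by edgeR (0 at an unadjusted p under 0.05).

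Car2 (ENSMUSG00000027562.12, chr3:14886273-14900770), the fast cytosolic carbonic anhydrase, and Guca2a varied least among Controls, with coefficients of variation of 22.7% and 28.1%. Car2 levels were 685, 914 and 1414 CPM (lowest, median and highest) in Controls and 797, 850 and 1223 CPM in GWI mice. The highest and the lowest were both Controls, Control 9 and Control 1. Its log2 fold change was -0.05 (SE 0.14, adjusted p = 0.823), and its 95% interval of -0.36 to 0.26 was the narrowest of the 10.

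Car4 (ENSMUSG00000000805.18, chr11:84957786-84966044) encodes a carbonic anhydrase anchored to the outer face of the apical membrane. Levels in Controls were 156, 206 and 1465 CPM (lowest, median and highest) and those in GWI mice were 308, 468 and 770 CPM. Control 1 held the highest value of all 17 mice and GWI 5 the highest of its group. The other 8 Controls lay between 156 and 433 CPM and the other 7 GWI mice between 308 and 589 CPM. With all 17 mice, the mean was 372 ± 420 CPM (SD, n = 9) in Controls and 489.9 ± 149 CPM (SD, n = 8) in GWI mice, and the log2 fold change of 0.40 (SE 0.41, adjusted p = 0.479, 95% interval -0.48 to 1.27) was not called.

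The result for Car4 turned on 1 library. Without Control 1 the log2 fold change was 1.06 (adjusted p = 0.00271), and 6 of 8 GWI mice lay above every remaining Control. Without Control 1 and GWI 5, chosen for their summed Hox level after the data were examined, the means were 236 ± 96.6 CPM (SD, n = 8) and 449.9 ± 105 CPM (SD, n = 7), a log2 fold change of 0.93 (SE 0.22, adjusted p = 0.00480), with 5 of 7 GWI mice above every Control. In this fit 2 of the 10 genes were called, Car4 higher and Atp12a lower, where 34.9% of 14152 tested genes were called in either direction. Without Control 1 alone 4 of the 10 were called, Aqp4, Aqp8 and Car4 higher and Atp12a lower, where 34.2% of tested genes were. In the fit of all 17 mice, where Car4 was at 0.40, adding the smooth muscle against epithelium score of each mouse as a covariate gave -0.03 (SE 0.61, adjusted p = 0.981), and the fits without Control 1 were not run with this covariate. That score ran from -0.36 to 3.06 in Controls and from -1.79 to 0.08 in GWI mice.

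Cftr (ENSMUSG00000041301.15, chr6:18170687-18322768) encodes the chloride and bicarbonate channel of crypt cells that is opened by cyclic AMP and cyclic GMP. Its levels were 59.3, 104 and 191 CPM (lowest, median and highest) in Controls and 92.7, 133 and 175 CPM in GWI mice. Control 1 was lowest and Control 9 highest of all mice, and every GWI mouse lay between them. Its log2 fold change was 0.21 (SE 0.18, adjusted p = 0.399, 95% interval -0.18 to 0.60). It was called higher by limma-voom with quality weights, at 0.37 (adjusted p = 0.00877), a test that called 57.2% of all genes. Exons of Cftr overlap those of Gm15592 on the other strand over 129 of 7765 bases.

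Clca4b (ENSMUSG00000074195.3, chr3:144910921-144932529) belongs to the CLCA family of secreted proteins that regulate calcium-activated chloride currents, and it lies among other genes of that family. Reads shared with close copies may make its unique counts uncertain, which was not measured. Levels were 2.84, 5.49 and 87.5 CPM (lowest, median and highest) in Controls and 4.04, 6.90 and 27.6 CPM in GWI mice. The 2 highest Controls were Control 7 (87.5 CPM) and Control 6 (25.6 CPM), the libraries with the highest small intestine markers, and the highest GWI mouse was GWI 4. The log2 fold change was -0.87 (SE 0.66, adjusted p = 0.328, 95% interval -2.28 to 0.54) with all mice. Without Control 6 and Control 7 it was 0.82 (adjusted p = 0.118), so that the direction of this value rests on those libraries, and neither value was called. DESeq2's Wald test, which can replace outlying counts, gave -0.24 (SE 0.35, adjusted p = 0.637) with all mice.

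Atp12a (ENSMUSG00000022229.3, chr14:56365068-56388550) encodes the catalytic subunit of the nongastric proton-potassium pump, which takes up potassium across the apical membrane of the distal colon. It was the gene that fell in GWI colons. Levels were 2.32, 8.47 and 27.3 CPM (lowest, median and highest) in Controls and 1.93, 3.16 and 6.05 CPM in GWI mice. Of the 9 Controls, only Control 7 and Control 9 lay below the highest GWI mouse, and Control 1 stood far above the others. Means were 9.83 ± 7.22 CPM (SD, n = 9) and 3.67 ± 1.56 CPM (SD, n = 8), so the Control mean was 2.68 times the GWI mean. The log2 fold change was -1.42 (SE 0.38, adjusted p = 0.0127, 95% interval -2.23 to -0.61).

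The call for Atp12a did not rest on Control 1. Leaving out each mouse in turn gave log2 fold changes of -1.56 to -1.06 and adjusted p-values of 0.00618 to 0.0279, and without both Control 1 and GWI 5 the log2 fold change was -1.20 (SE 0.31, adjusted p = 0.00830). The call was lost with the muscle against epithelium covariate (log2 fold change -1.45, adjusted p = 0.157) and with replicate numbers as a block (-1.32, adjusted p = 0.0508), and its adjusted p ran from 0.000406 to 0.157 over all alternatives. Counts of Atp12a were low, 37 to 432 per mouse, and 557 of its 4016 exon bases overlap Gm10873 on the other strand, whose reads cannot be told apart from its own if strand was not used. Beside its fall, the summed level of the posterior hindgut Hox genes had a median of 28.7 CPM in Controls and 13.2 CPM in GWI mice, with 4 of 5 tested genes negative and 0 called by edgeR (2 at an unadjusted p under 0.05), and its part in the result was not tested.

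Guca2a (ENSMUSG00000023247.2, chr4:119637704-119639471), the gene for guanylin, the promoter of which is shown above, was expressed at 863, 1146 and 1871 CPM (lowest, median and highest) in Controls and at 921, 1140 and 1978 CPM in GWI mice. GWI 5 held the highest value, and the other 7 GWI mice stayed between 921 and 1192 CPM. Between the groups the log2 fold change was -0.05 (SE 0.18, adjusted p = 0.836, 95% interval -0.43 to 0.32).

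**Figure D3:**
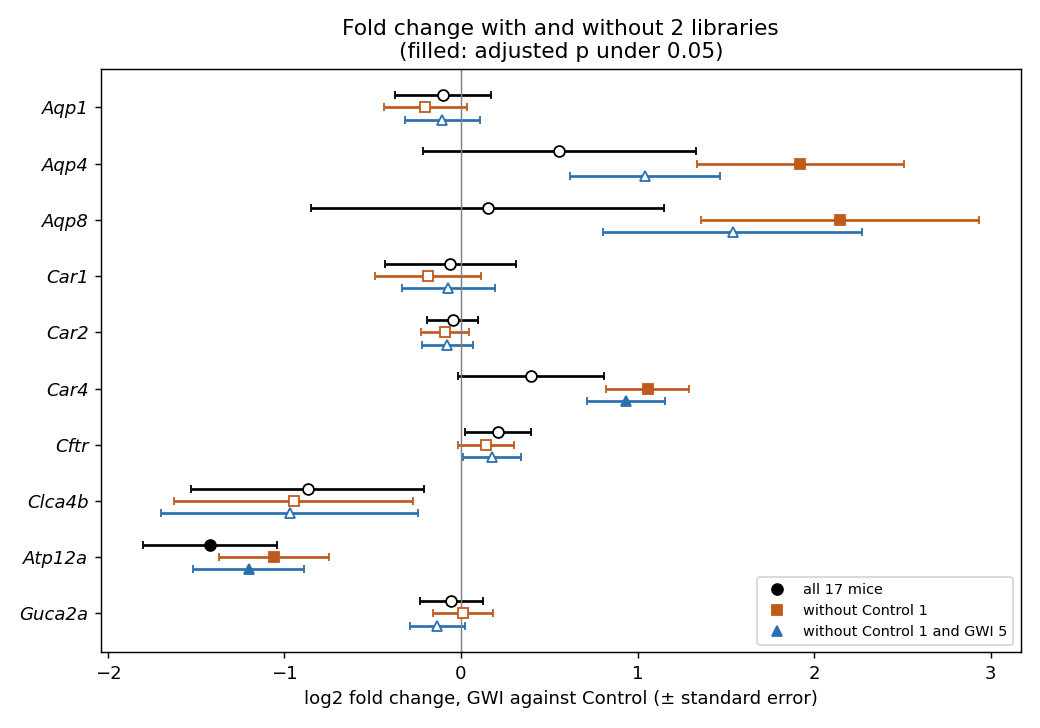
Log2 fold change of each of the 10 genes, GWI against Control, with all 17 mice (circles), without Control 1 (squares) and without Control 1 and GWI 5 (triangles), where bars are standard errors and filled symbols have an adjusted p under 0.05. Atp12a is filled and below 0 in all 3 fits, Car4 is filled and above 0 in both fits without Control 1, and Aqp4 and Aqp8 are filled only without Control 1 alone.

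Some pairs of the 10 genes were related among mice, in the same or in opposite directions. Over deviations of log2 CPM from the group mean, 15 of 45 gene pairs had an adjusted p under 0.05 for Pearson's r, 5 for Spearman's rho, and 5 for both (17 mice, 100000 permutations within groups, Benjamini-Hochberg adjusted over the 45 pairs). Aqp1 and Car4 ran opposite, with r = -0.82 and rho = -0.82 (permutation adjusted p = 0.00383 and 0.00810), as did Car4 and Cftr, with r = -0.80 and rho = -0.78 (0.00383 and 0.0111). The cytosolic enzymes Car1 and Car2 rose and fell together, with r = 0.79 and rho = 0.78 (permutation adjusted p = 0.00664 and 0.0111). Aqp1 and Cftr had r = 0.74 and rho = 0.76 (0.0153 and 0.0125), and Aqp4 and Guca2a had r = 0.72 and rho = 0.67 (0.0104 and 0.0378).

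For these 5 pairs the mice farthest from the median of the gene named first were Control 1 and GWI 5. Without them r was -0.61 for Aqp1 and Car4, -0.65 for Car4 and Cftr, 0.83 for Car1 and Car2, 0.52 for Aqp1 and Cftr and 0.50 for Aqp4 and Guca2a. Aqp4 and Aqp8 had r = 0.73 (permutation adjusted p = 0.0187) but rho = 0.58 (adjusted p = 0.0973), and r = 0.33 without them. Over all pairs the number with an adjusted p under 0.05 for r fell from 15 to 2 without Control 1 and GWI 5, so most of these relations, among them at least 3 of the 5 named first, did not pass without those mice.

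The other genes of these pathways were taken from 6 lists with 74 genes, of which 59 were tested. In GWI colons 11 rose and 5 fell, and the median log2 fold change was 0.07. These 16 of 59 are close to the 26.8% called among all genes. At an unadjusted p under 0.05 there were 23, where 41.4% of all tested genes passed. Upper-quartile scaling turned the balance, with 7 called higher and 8 lower of 59, where 29.7% of all tested genes were called. Car9, Kcnq1, Slc26a2 and Slc9a2 lost their calls there (adjusted p = 0.0863, 0.0813, 0.0563 and 0.0569). These calls too come from edgeR, adjusted over all tested genes, and all 16 were lost with the muscle against epithelium covariate, under which 0 of all 14146 genes were called and 3300 had an unadjusted p under 0.05. When each mouse was left out in turn, 10 of the 16 kept the call in all 17 fits. The call was lost in 4 fits for Kcnma1 (without Control 6, GWI 2, GWI 6 or GWI 7, adjusted p up to 0.0644), 8 for Kcnq1, 9 for Slc26a6, 10 for Slc26a2, 11 for Car9 and 14 for Slc9a2, with adjusted p up to 0.0874, 0.105, 0.0676, 0.0859 and 0.0796. Without Control 1 and GWI 5, 28 of 60 tested list genes were called, where 34.9% of all tested genes were.

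The potassium channels, pumps and chloride carriers of the basolateral membrane provide the driving force for chloride secretion. Of 11 tested, 2 rose and 2 fell, where 13.4% of all tested genes were called higher and 13.5% lower. Kcnk5, a potassium leak channel, rose from 48.9 ± 14.5 CPM (SD, n = 9) to 105 ± 18.0 CPM (SD, n = 8), a log2 fold change of 1.11 (SE 0.16, adjusted p = 0.000448). Kcnq1, the channel that is activated by cyclic AMP, rose by 0.63 on the log2 scale (adjusted p = 0.0400). Kcnma1, a calcium-activated potassium channel that smooth muscle also uses, had a log2 fold change of -0.55 (adjusted p = 0.0305), which came to 0.08 (adjusted p = 0.837) with the muscle against epithelium covariate. Atp1b3, a sodium pump subunit, had one of -0.30 (adjusted p = 0.0107). Exons of Kcnq1 and Kcnma1 overlap genes on the other strand.

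Of the 12 genes of the guanylin receptor and of cyclic nucleotide control, all tested, 2 rose and 0 fell. Among all tested genes 13.4% were called higher and 13.5% lower. Gucy2c, the receptor for guanylin and the gene of the list with the highest mean CPM, rose from 295 ± 44.1 CPM (SD, n = 9) to 439 ± 63.2 CPM (SD, n = 8), a log2 fold change of 0.57 (SE 0.11, adjusted p = 0.00264). Adcy6, an adenylate cyclase that makes cyclic AMP, rose from 185 ± 22.8 to 275 ± 27.0 CPM, a log2 fold change of 0.57 (SE 0.09, adjusted p = 0.000751). With the muscle against epithelium covariate Adcy6 came to 0.36 (adjusted p = 0.110). It was the 1 gene of the 59 whose groups did not overlap, where 2.35% of all tested genes had such groups. Exons of Adcy6 overlap those of Gm29331 on the other strand. Guca2b, which encodes the related peptide uroguanylin, had a log2 fold change of -0.18 (adjusted p = 0.541).

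Exchangers of chloride, bicarbonate and protons had 4 genes that rose and 1 that fell among 11 tested. Of all tested genes 13.4% were called higher and 13.5% lower. The median log2 fold change of the list was 0.44, against -0.06 over all tested genes. With upper-quartile scaling 2 of the 11 were called higher and 1 lower, where 29.7% of all tested genes were called. Slc4a2, a basolateral chloride-bicarbonate exchanger, rose by 0.77 on the log2 scale (SE 0.15, adjusted p = 0.00216). Exons of Slc4a2 overlap those of Fastk on the other strand. Slc26a2, a sulphate transporter and the gene of the list with the highest mean CPM (not scaled to length), rose from 648 to 879 CPM (log2 fold change 0.44, adjusted p = 0.0326). With the muscle against epithelium covariate its log2 fold change came to 0.09 (adjusted p = 0.827). The gene that fell, the exchanger Slc26a6, had a log2 fold change of -1.53 (adjusted p = 0.0381) that came to -0.25 (adjusted p = 0.366) without Control 6 and Control 7, and it was not called without Control 6 or without Control 7 alone (adjusted p = 0.0690 and 0.105).

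Among 10 other carbonic anhydrases 2 rose and 1 fell, where 13.4% of all tested genes were called higher and 13.5% lower. Car12, a membrane enzyme of the basolateral side, rose from 80.7 ± 10.7 CPM (SD, n = 9) to 129 ± 38.8 CPM (SD, n = 8), a log2 fold change of 0.67 (SE 0.15, adjusted p = 0.00480). Car9, a membrane enzyme induced by hypoxia, rose by 0.41 on the log2 scale (adjusted p = 0.0403). Car14, at a mean of 2.93 CPM in Controls and 1.46 CPM in GWI mice, had a log2 fold change of -1.01 (adjusted p = 0.0167). With the muscle against epithelium covariate Car12 came to 0.39 (adjusted p = 0.288), Car9 to 0.17 (adjusted p = 0.678) and Car14 to 0.15 (adjusted p = 0.811). Car8, a member without enzyme activity and the gene with the highest mean CPM over all 17 mice, had one of -0.55 (adjusted p = 0.259). Exons of Car9 and Car14 overlap genes on the other strand.

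Of 12 other chloride channels and CLCA genes, 1 rose and 1 fell, where 13.4% of all tested genes were called higher and 13.5% lower. Clcn3, an intracellular chloride-proton exchanger, rose by 0.32 on the log2 scale (adjusted p = 0.0123), and Clca3a1 had a log2 fold change of -0.60 (adjusted p = 0.0224), with the same doubt over close copies as Clca4b and exons that overlap Gm34866 on the other strand. With the muscle against epithelium covariate Clcn3 came to 0.08 (adjusted p = 0.688) and Clca3a1 to -0.31 (adjusted p = 0.502). Clca1, a goblet cell product and the gene of the list with the highest mean CPM, had a log2 fold change of 0.05 (adjusted p = 0.951) with all mice and 0.81 (adjusted p = 0.00605) without Control 1 and GWI 5. Of the 9 other aquaporins 3 were tested and edgeR called 0 of them, with 0 at an unadjusted p under 0.05 and 0 called by DESeq2. Aqp11, an intracellular channel and the one with the highest mean CPM, had a log2 fold change of 0.39 (adjusted p = 0.129) with all mice and 0.39 (adjusted p = 0.0229) without Control 1 and GWI 5. With limma-voom, without GWI 5 alone and without Control 1, 6, 7, 9 and GWI 5, 1 of these aquaporins was called higher as well.

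**Figure D4:**
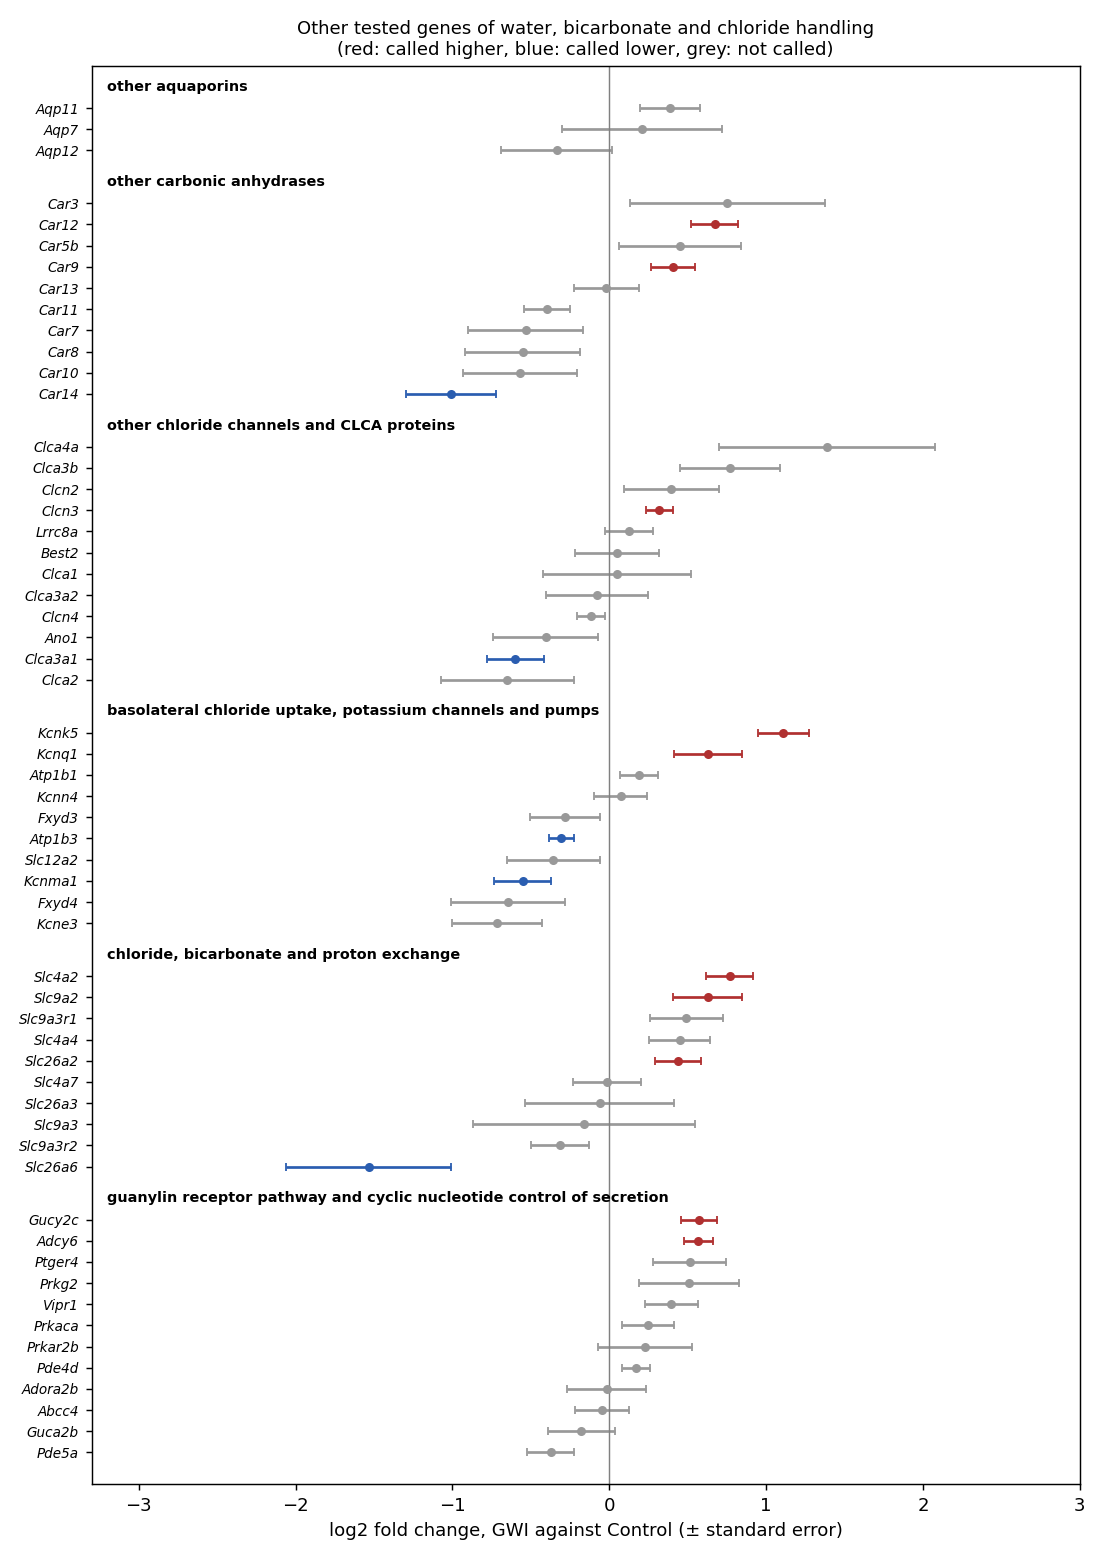
Log2 fold change of 57 of the 59 tested genes of the 6 pathway lists, GWI against Control, where points are genes, bars are standard errors, red is called higher, blue called lower and grey not called. Called genes lie on both sides of 0, from Slc26a6 at -1.53 to Kcnk5 at 1.11.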

How the data were processed

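RNA of the colon of 17 mice was measured. The authors trimmed paired-end reads of poly(A)-selected RNA with Trimmomatic 0.36, mapped them to GRCm38 with STAR 2.5.2b and counted reads that hit 1 gene uniquely (featureCounts). The counts were deposited as 1 raw table without normalization, in which 0 columns lacked a sample. Unique counting disfavours genes with close copies. The annotation release and the strand setting are not given in the sources used here, and first parts shared by some sample names are undefined and were not modelled.

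Counts were filtered with filterByExpr, scaled by TMM and tested by the quasi-likelihood test of edgeR 4.0.16 (R 4.3.3; robust fit, condition as the only term, 17 mice), with Benjamini-Hochberg adjustment over 14146 genes and calls at an adjusted p under 0.05. DESeq2 1.42.0, limma 3.58.1, other scalings and filters, covariates and left-out mice were alternatives, and the script was tested on simulated data. DESeq2 was run with its default settings, which replace outlying counts in groups of this size. CPM use TMM-scaled library sizes, and log2 CPM a prior count of 2. Approximate 95% intervals use 15 residual degrees of freedom and an SE derived from the F statistic. The p-values measure the spread between separate mice.

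The 10 genes and all lists were chosen with earlier results of these data known. Named genes are the 10, the 2 called genes with the smallest p in each direction and the tested gene of each pathway list with the highest mean CPM, the 2 genes most like each of the 10, and up to 2 defining genes of each marker list. Guca2b was named after its value was seen. Some genes that this rule names are not reported here, although list counts include them. Gene positions are from GENCODE M21 and promoters from RefSeq, GRCm38.p6.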

Additional observations from a re-analysis of the deposited data

Results flagged for a closer look

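In 13 of the 28 groups examined (the 10 genes and the 4 marker sums, in Control and GWI mice), 1 mouse lay farther from its nearest neighbour, as a share of the group's whole range, than Dixon's 95% limit allows. The limit allows about 1 such result in 20 groups only for independent values with a normal distribution. Here CPM were not log transformed, the groups share mice, and every flagged mouse was the highest of its group. The 13 of 28 can therefore not be set against that rate. Control 1 was the highest of its group for Aqp4 at 565 CPM (share 0.894), Aqp8 at 1934 CPM (0.874), Car4 at 1465 CPM (0.788), Atp12a at 27.3 CPM (0.618) and the posterior hindgut Hox sum at 129.6 CPM (0.739). GWI 5 was the highest of its group for Aqp4 at 592 CPM (0.614), Aqp8 at 1047 CPM (0.542), Guca2a at 1978 CPM (0.744) and the posterior hindgut Hox sum at 89.1 CPM (0.850). Control 7 was the highest for Clca4b at 87.5 CPM (0.731) and for the small intestine sum at 1148 CPM (0.602). Control 9 was the highest for Car1 at 29280 CPM (0.536), and GWI 4 for Clca4b at 27.6 CPM (0.776).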

How the results depend on the processing

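Depth limits little here except for Atp12a and Clca4b, whose counts per mouse began at 37 and 50. Under limma-voom with quality weights 5 of the 10 genes were called (4 higher, Aqp4 at 1.32, Aqp8 at 2.26, Car4 at 0.77 and Cftr at 0.37) and 31 pathway genes, where that test called 57.2% of all genes. Log2 fold changes turned sign to 0.0032 for Aqp1, 0.073 for Car1, 0.048 for Car2, 0.37 for Clca4b and 0.023 for Guca2a. With a replicate block, 0 of the 10 genes were called by edgeR (0 lower, 1 at an unadjusted p under 0.05) and 8 pathway genes, against 15.8% of all genes. Aqp8 was at 2.04 (adjusted p = 0.162), and Car1 (0.26), Car2 (0.034) and Guca2a (0.039) turned sign. The numbers were not taken to pair the mice, since over 8 same-numbered pairs the correlation of deviations ran from -0.51 to 0.11 and 0 of 8 correlated best with their own number. With the muscle against epithelium covariate edgeR called 0 of the 10 genes (0 lower, 1 at an unadjusted p under 0.05) and 0 pathway genes (9 at that p), and Aqp4 (-0.089), Aqp8 (-0.20), Car4 (-0.034) and Cftr (-0.12) turned sign. With the small intestine covariate Aqp1 (0.066), Aqp8 (-0.083) and Clca4b (0.45) did.

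Chosen after seeing the data, leaving out Control 1 and GWI 5 gave 2 calls (1 higher) and 28 pathway genes, against 34.9% of all genes. Leaving out Control 6 and Control 7 gave 9 pathway genes, against 19.6% of all genes, with Aqp1 at 0.046, Aqp8 at -0.042 and Clca4b at 0.82. Leaving out these 4 mice and Control 9 gave 3 calls (2 higher) and 25 pathway genes, against 39.2% of all genes, with Aqp1 at 0.0054, Car1 at 0.038 and Clca4b at 0.95. Leaving out each mouse in turn gave 1 to 4 calls (0 to 3 higher, 1 lower in each) and 10 to 26 pathway genes (26 without Control 1, 10 without Control 6, GWI 6 or GWI 7), against 19.6% to 34.2% of all genes, with Aqp1 from -0.28 to 0.043, Aqp4 from -0.32 to 1.92, Aqp8 from -0.46 to 2.15, Car1 from -0.19 to 0.21, Car2 from -0.11 to 0.041, Clca4b from -1.36 to 0.23 and Guca2a from -0.19 to 0.036. The number of related gene pairs, 15 with all mice, was 5 without Control 1, 6, 7 and GWI 5 and 2 without Control 1 and GWI 5. Scaling moved the median of all genes from -0.06 (TMM) to -0.06 (DESeq2 size factors) and -0.15 (upper quartile). The cause of these changes was not tested.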

Other observations

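The genes whose levels ran most like those of the 10 were taken as those with the highest r over 17 mice, in log2 CPM deviations from the group mean, so these values are a description without a test. Aqp8 ran with Slc26a3, the chloride-bicarbonate exchanger of surface colonocytes (r = 0.96, and 0.92 without Control 1 and GWI 5), and with the integrin gene Itgav (0.95). Car4 ran with Igsf9 (r = 0.99, and 0.97 without those mice) and Rnf19b (0.98). Aqp1 ran with Sord, the gene for sorbitol dehydrogenase (r = 0.98 and 0.95), and Rap1gap (0.97). Aqp4 ran with Edn3, which encodes endothelin 3, a ligand needed for the enteric nervous system (r = 0.96 and 0.88), and with the prostaglandin receptor gene Ptger4 (0.93 and 0.75). Car1 ran with Akr1c19 (0.97) and Cyp2c65 (0.96), and Car2 with Mtch2 (0.90) and Blvra (0.89). Cftr ran with Tm9sf3 (0.96) and Parpbp (0.95), and Guca2a with Ppp1r14d (0.92) and Vamp8 (0.91). Clca4b ran with Anpep, a brush border peptidase (r = 0.91), and Suox (0.86). Atp12a ran with Prdx6 (r = 0.91 and 0.84) and the immediate early gene Fosb (0.88 and 0.79).

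In other marker lists, calls are to be read against the 13.4% higher and 13.5% lower among all genes. Of 7 goblet cell genes 1 was called higher, of 8 tested enteric glia genes 1 higher and 2 lower, and of 7 adipocyte genes 2 higher with all 7 fold changes positive. Of 9 enteric neuron genes edgeR called 0 (0 at an unadjusted p under 0.05), with all 9 fold changes negative. Of 5 tested small intestine genes 1 was called higher and 2 lower, and of 5 tested posterior hindgut Hox genes edgeR called 0 (2 at an unadjusted p under 0.05), with 4 of 5 fold changes negative and a median of -1.04.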
